A study of Mus musculus with 9 samples.

Results

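Trp53 encodes the transcription factor p53, and 9 genes that p53 is known to switch on directly were followed with it: Mdm2, Ccng1, Sesn1, Gdf15, Perp, Bbc3, Bax, Pmaip1 and Fas. These 10 genes, of 55335 listed in each file, were found by matching Ensembl identifiers to mouse symbols. They were selected on known function and on fold changes of each hairpin against the control that were already known, in which Perp stood out. Values of the 10 genes in those comparisons are therefore a description, with no p-value. The cells were D2A1-d, a mouse breast carcinoma line. They carried shMed1 #4 or shMed1 #2, which are short hairpin RNAs against Med1 (genotype labelled Med1 Knockdown), or NTC, a non-targeting control hairpin (genotype labelled WT). All were grown in serum-containing medium with antibiotics, and no further treatment is labelled. Each of the 3 groups held 3 samples called biological replicates. Nothing in the labels says whether these came from separate transductions, or whether cells were cloned or pooled, so a p-value covers only the spread among the samples at hand. Med1 is a Mediator subunit, and Mediator relays signals from transcription factors to RNA polymerase II.

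p53 is kept scarce in unstressed cells by the ubiquitin ligase Mdm2, itself a p53 target, which closes a feedback loop. DNA damage and other stresses stabilise p53 protein, and the protein then binds response elements near its targets. The targets arrest the cell cycle, adjust metabolism or trigger death through mitochondria or death receptors. Because p53 is controlled mainly as a protein, mRNA counts say nothing of its amount, its modification or a mutation.

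A p53 response element is a pair of 10-base half-sites, each with 3 purines, C, 2 bases that are A or T, G and 3 pyrimidines. RefSeq promoter windows on GRCm38.p6, from 250 bases before a start to 50 after it, were searched for 2 adjacent half-sites with up to 3 mismatches. The half-site reads alike on both strands, so one pass covers both. Of 32851 windows of all genes, 6.292% held such a match. The 8 genes with a window had 12, and 5 of these held one, belonging to Ccng1, Bbc3, Trp53, Bax and Sesn1. They are shown because each belongs to a gene whose counts are described next. Capitals mark the 20 matched bases, read on the gene's strand, and Ccng1, with 1 mismatch, comes closest to the consensus (up to 1 mismatch was found in 0.088% of all windows). The other 4 had 3 mismatches each.
Ccng1 (minus strand, chr11:40755457-40755486): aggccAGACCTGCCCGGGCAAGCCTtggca
Bbc3 (plus strand, chr7:16309481-16309510): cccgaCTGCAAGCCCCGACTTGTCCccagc
Trp53 (plus strand, chr11:69580279-69580308): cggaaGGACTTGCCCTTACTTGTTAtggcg
Bax (minus strand, chr7:45467085-45467114): tgacaAGCATATCCCAGGCAAGCTTtgaac
Sesn1 (plus strand, chr10:41887261-41887290): ccttcAAGCTTGTTTTTGCTGGCCTggtcc
The matches begin 195 bases before the RefSeq start of Ccng1, 75 before that of Trp53 and 211 before that of Bax. For Bbc3 the match begins 97 bases before 1 of 3 RefSeq starts, and for Sesn1 173 bases before 1 of 2, in each case a start that lies inside the gene, downstream of the gene start given with its counts. A second match in the Ccng1 window, with 3 mismatches, is not printed. The windows were also searched for 2 half-sites without mismatch and with up to 13 bases between them. None of the 12 windows held such a pair, which 0.073% of all windows did. A match describes letters only, and p53 binding was not measured. The windows of Mdm2, Fas and Gdf15 held no such match, which says only that these letters are not in those windows.

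Library totals ran from 8123918 to 8879982 counts, and 13611 genes had enough counts to be tested with edgeR's quasi-likelihood test. A gene is called where its adjusted p is under 0.05, and levels are CPM, counts scaled to a library of common size. Counts of Med1, the targeted gene, gave 25.0, 26.5 and 25.4 CPM for shMed1 #4, then 22.0, 25.1 and 24.6 CPM for shMed1 #2, against 85.4, 87.3 and 79.6 CPM in NTC. The carcinoma label was checked against 7 epithelial markers. Krt8 and Krt18 were measured, while Epcam and Krt5 had no count in any library, and Cdh1, Krt19 and Krt14 averaged at most 0.153 CPM in any group. All 5 mesenchymal markers were measured, with a summed level, mostly of Vim and Fn1, of 4868 to 5084 CPM with shMed1 #4, 4686 to 4899 CPM with shMed1 #2 and 4089 to 4270 CPM in NTC. They did not move as one: 2 were called higher and 1 lower with each hairpin, with Cdh2 the lower one with shMed1 #4 and Fn1 with shMed1 #2. Among the leukocyte markers Ptprc, Cd3e, Csf1r, Cd68, Itgam and Lyz2, Cd3e and Itgam had no count, and Ptprc had at most 2 counts in any library. The summed level, mostly of Csf1r, was 14.3 to 15.7 CPM with shMed1 #4, 13.9 to 17.0 CPM with shMed1 #2 and 16.7 to 19.6 CPM in NTC. In bulk RNA, fewer cells that express a gene and less RNA per cell cannot be told apart.

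Trp53 mRNA differed little between groups while several of its targets did. Of the 10 genes, 8 passed the filter on low counts. With shMed1 #4, 5 of the 8 were called, 5 lower and 0 higher. Of all genes tested, 28.2% were called with shMed1 #4, 14.1% lower and 14% higher. With shMed1 #2, 6 of the 8 were called, 5 lower and 1 higher. Of all genes tested, 43.7% were called with shMed1 #2, 21.9% lower and 21.8% higher. The lower ones were Perp, Bbc3, Fas and Sesn1 with either hairpin, joined by Ccng1 with shMed1 #4 and by Bax with shMed1 #2. Mdm2 was the 1 higher gene, with shMed1 #2. The genes thus did not move as one, and both comparisons use the same NTC libraries. The samples of a hairpin did not overlap NTC in 5 of the 8 genes with shMed1 #4, against 38.9% of all genes tested, and in 7 of the 8 with shMed1 #2, against 51.5%. Since the genes were chosen with these contrasts known, nothing is read from the counts.

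**Figure D1:**
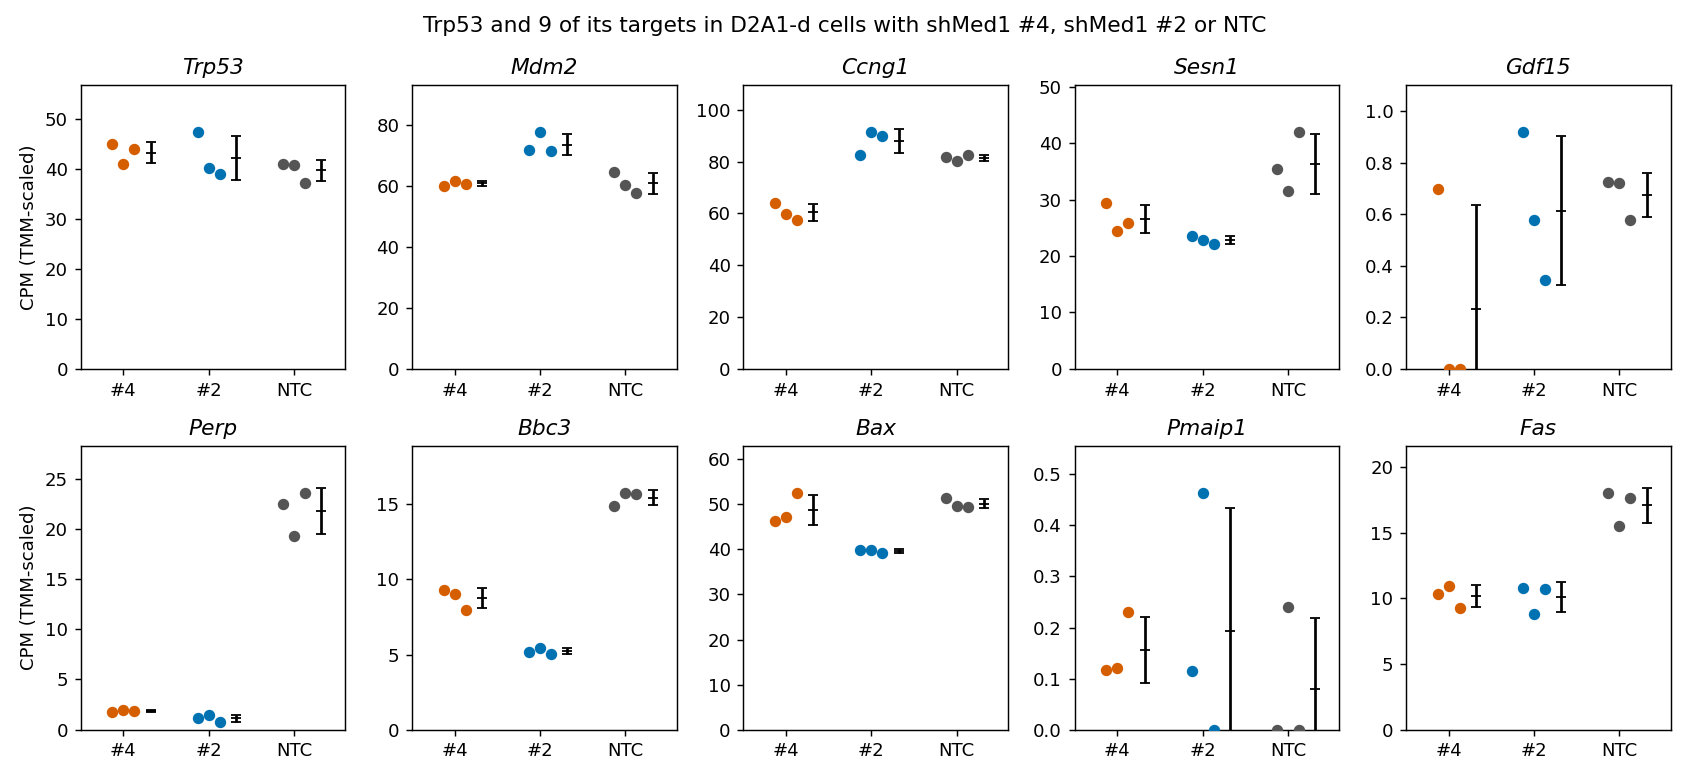
Level of each gene in CPM (vertical axis, starting at 0, its own scale per panel) in the 3 samples with shMed1 #4, shMed1 #2 and NTC (points), with the group mean and SD beside them as a bar, cut off at 0. Perp, Bbc3, Fas and Sesn1 lie below NTC with each hairpin without overlap, Ccng1 only with shMed1 #4 and Bax only with shMed1 #2; Gdf15 and Pmaip1 stay under 1 CPM.

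Trp53 itself (ENSMUSG00000059552.13, chromosome 11, 69580359 to 69591873, plus strand, GRCm38) was at 44.9, 41.0 and 44.1 CPM with shMed1 #4. The shMed1 #2 samples had 47.4, 40.2 and 39.1 CPM, and NTC had 41.1, 40.9 and 37.3 CPM. The 3 groups overlapped. The log2 fold change of Trp53 was 0.12 with shMed1 #4 (SE 0.0779, 95% interval -0.03 to 0.28) and 0.09 with shMed1 #2 (SE 0.0780, 95% interval -0.07 to 0.24), and neither was called.

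Mdm2, the ligase that degrades p53 (ENSMUSG00000020184.15, chromosome 10, 117688875 to 117710758, minus strand), stood at 60.0, 61.6 and 60.6 CPM with shMed1 #4. Its levels were 71.6, 77.5 and 71.4 CPM with shMed1 #2, and 64.6, 60.1 and 57.5 CPM in NTC. All 3 shMed1 #2 samples lay above all NTC samples, while the shMed1 #4 samples lay inside the NTC range. Mdm2 rose by 0.28 on the log2 scale with shMed1 #2 (SE 0.0627). With shMed1 #4 its log2 fold change was 0.00063 (SE 0.0646, 95% interval -0.13 to 0.13).

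Ccng1, cyclin G1, works with a phosphatase to act on Mdm2 (ENSMUSG00000020326.7, chromosome 11, 40748552 to 40755311, minus strand). Its levels were 64.0, 59.8 and 57.5 CPM with shMed1 #4, and 82.7, 91.3 and 90.1 CPM with shMed1 #2. In NTC they were 81.6, 80.1 and 82.5 CPM. The shMed1 #4 samples lay below every other sample, and the shMed1 #2 samples lay narrowly above NTC. Ccng1 fell by 0.43 on the log2 scale with shMed1 #4 (SE 0.0613). Its log2 fold change of 0.11 with shMed1 #2 (SE 0.0581, 95% interval -0.0032 to 0.23) was not called in the fit of all 9 samples, but 0.16 was called without shMed1 #2 replicate 1.

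Sesn1 encodes a sestrin, one of the stress-induced proteins that restrain growth signalling through mTORC1 (ENSMUSG00000038332.13, chromosome 10, 41809935 to 41908424, plus strand). Sesn1 had 29.4, 24.5 and 25.9 CPM with shMed1 #4, 23.5, 22.8 and 22.2 CPM for shMed1 #2, against 35.4, 31.5 and 41.9 CPM in NTC. Every hairpin sample lay below every NTC sample, and the NTC samples were spread the widest. Sesn1 fell by 0.45 with shMed1 #4 (SE 0.0915) and by 0.67 with shMed1 #2 (SE 0.0937) on the log2 scale.

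Perp encodes a membrane protein of desmosomes, the junctions that hold epithelial cells together, and was first described as a p53 target linked to apoptosis (ENSMUSG00000019851.8, chromosome 10, 18845020 to 18857073, plus strand). Perp had 1.74, 1.92 and 1.85 CPM with shMed1 #4, from 15, 16 and 16 counts. With shMed1 #2 it had 1.15, 1.51 and 0.805 CPM, from 10, 13 and 7 counts. In NTC it had 22.5, 19.2 and 23.6 CPM, from 186, 160 and 204 counts. No sample with a hairpin came near NTC. The log2 fold change was -3.56 with shMed1 #4 (SE 0.182), an 11.8-fold lower level, and -4.22 with shMed1 #2 (SE 0.199), an 18.7-fold lower level. Of 13611 genes ordered from the lowest fold change, Perp was number 5 with shMed1 #4 and number 6 with shMed1 #2.

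Bbc3 encodes PUMA, a BH3-only protein that frees Bax and Bak1 to permeabilise mitochondria (ENSMUSG00000002083.13, chromosome 7, 16308393 to 16318205, plus strand). Bbc3 had 9.29, 9.01 and 7.98 CPM with shMed1 #4, 5.16, 5.45 and 5.06 CPM for shMed1 #2, against 14.9, 15.8 and 15.7 CPM in NTC. The groups formed 3 separate levels, shMed1 #2 the lowest and NTC the highest. On the log2 scale Bbc3 fell by 0.82 with shMed1 #4 (SE 0.135) and fell by 1.56 with shMed1 #2 (SE 0.149), which are levels 1.76-fold and 2.95-fold lower.

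Bax, the pore-forming protein downstream of PUMA (ENSMUSG00000003873.11, chromosome 7, 45461697 to 45466898, minus strand), stood at 46.3, 47.2 and 52.5 CPM with shMed1 #4. Its levels were 39.8, 40.0 and 39.2 CPM with shMed1 #2, and 51.4, 49.7 and 49.4 CPM in NTC. The shMed1 #2 samples lay below all others, and shMed1 #4 overlapped NTC. Bax fell by 0.34 on the log2 scale with shMed1 #2 (SE 0.0727), and with shMed1 #4 its log2 fold change was -0.04 (SE 0.0706, 95% interval -0.18 to 0.10). The gene Gm45808 shares 192 exon bases of Bax on the same strand, 12.2% of its exon length, and had 0 counts in all 9 libraries.

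Fas encodes a death receptor at the cell surface (ENSMUSG00000024778.13, chromosome 19, 34290666 to 34327772, plus strand). Fas had 10.3, 10.9 and 9.25 CPM with shMed1 #4, 10.8, 8.81 and 10.7 CPM for shMed1 #2, against 18.0, 15.5 and 17.7 CPM in NTC. Both hairpin groups lay below NTC and overlapped each other. Fas fell by 0.75 with shMed1 #4 (SE 0.129) and by 0.76 with shMed1 #2 (SE 0.129) on the log2 scale.

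**Figure D2:**
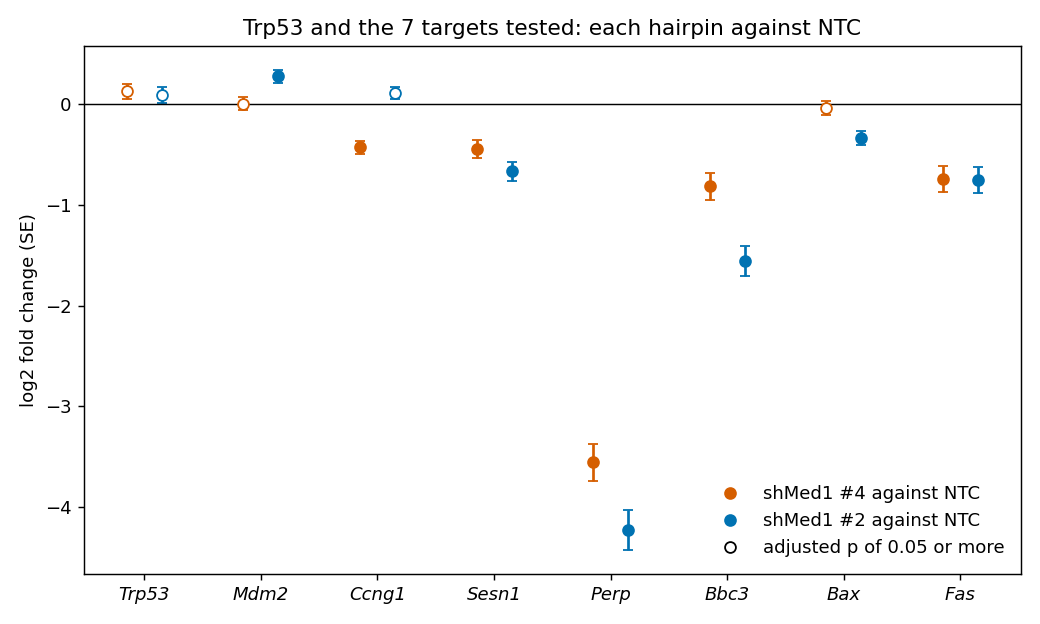
Log2 fold change against NTC (vertical axis, points with SE) of the 8 genes tested, for shMed1 #4 and shMed1 #2; open points were not called. Perp lies far below the others at -3.56 and -4.22, Bbc3, Fas and Sesn1 lie below 0 with both hairpins, and Trp53 lies near 0.

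Pmaip1 and Gdf15 were hardly detected. Pmaip1, the BH3-only protein NOXA (ENSMUSG00000024521.8, chromosome 18, 66458533 to 66465565, plus strand), had 1, 1 and 2 counts with shMed1 #4, 1, 4 and 0 counts with shMed1 #2, and 0, 2 and 0 counts in NTC. Gdf15, a secreted stress cytokine (ENSMUSG00000038508.7, chromosome 8, 70629393 to 70632456, minus strand), had 6, 0 and 0 counts with shMed1 #4, 8, 5 and 3 counts with shMed1 #2, and 6, 6 and 5 counts in NTC. A count of 3, the upper limit that 0 counts allow, is 0.344 to 0.363 CPM in these libraries, for counting error only. Neither passed the filter, and a difference was not detectable at this depth.

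Set per length, the genes kept much of their order. In CPM per kilobase of exon, Bax was highest at 30.9 ± 2.13 with shMed1 #4, 25.2 ± 0.253 with shMed1 #2 and 31.8 ± 0.678 in NTC (SD, n = 3 each). Ccng1 came next, at 17.2 ± 0.937, 25.1 ± 1.32 and 23.2 ± 0.347 in the same order of groups, and overlapped Bax with shMed1 #2 but not in the other groups. In NTC the chain Mdm2, Perp, Trp53, Sesn1 and Fas ran from 11.9 to 8.28 CPM per kilobase, and each neighbour overlapped the next. With either hairpin Perp stood below Bbc3, at 0.942 ± 0.0463 CPM per kilobase with shMed1 #4 and 0.591 ± 0.180 with shMed1 #2, against 11.2 ± 1.15 in NTC. Its samples overlapped those of Gdf15 with shMed1 #2.

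Whether the hairpins differed from each other was tested for the same genes. NTC cancels out, but each difference here is that between the 2 fold changes against NTC that were already known. The adjusted p-values of these genes are therefore a description and no independent support. Of the 8 genes tested 4 were called, 2 higher and 2 lower with shMed1 #4, where 26% of all genes were called. Bbc3 was higher with shMed1 #4 than with shMed1 #2 by 0.74 on the log2 scale (SE 0.166, edgeR adjusted p = 0.000262). Bax was higher by 0.30 (SE 0.0729, edgeR adjusted p = 0.00103). Ccng1 was lower with shMed1 #4 by a log2 difference of -0.54 (SE 0.0605, edgeR adjusted p = 8.39e-12), and Mdm2 by -0.27 (SE 0.0626, edgeR adjusted p = 0.000361). In each of these 4 genes all 3 shMed1 #4 samples lay on one side of all 3 shMed1 #2 samples. Mdm2 and Ccng1 were thus lower, and Bbc3 and Bax higher, with shMed1 #4, while the death receptor gene Fas was not called.

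Perp and Sesn1 also did not overlap between the hairpins, which makes 6 of the 8 genes against 37.5% of all genes tested, yet were not called. The log2 difference of Perp was 0.67 (95% interval -0.0032 to 1.34, edgeR adjusted p = 0.142), so neither no difference nor a 2-fold difference lies outside the interval. Sesn1 differed by 0.22 (95% interval 0.02 to 0.42, edgeR adjusted p = 0.0909). Trp53 differed by 0.04 (95% interval -0.12 to 0.19) and Fas by 0.0096 (95% interval -0.27 to 0.29), with edgeR adjusted p = 0.779 and 0.973.

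**Figure D3:**
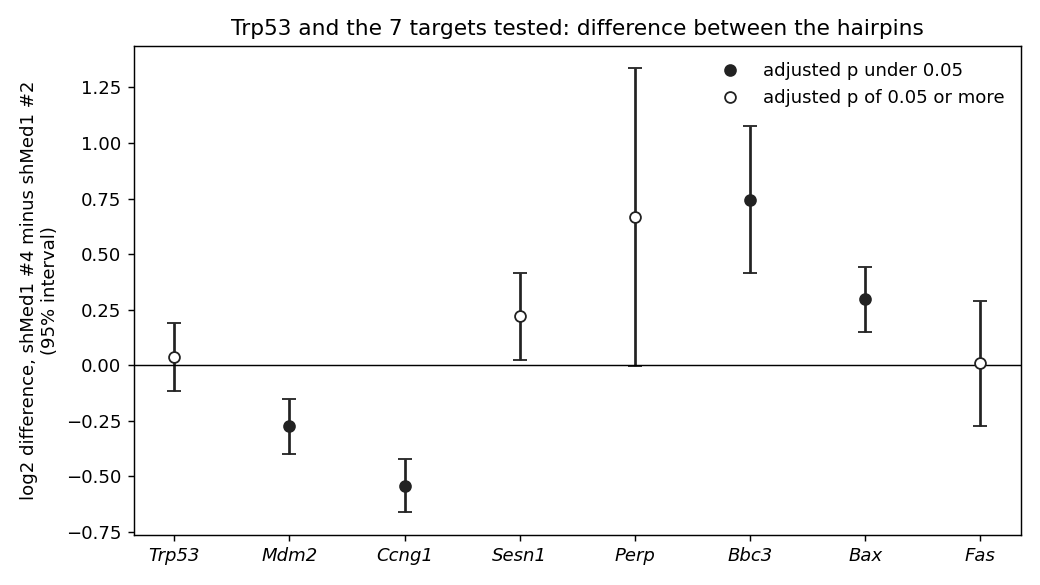
Log2 difference between shMed1 #4 and shMed1 #2 (vertical axis, points with 95% intervals) for the 8 genes tested; filled points were called. Bbc3 and Bax lie above 0, Mdm2 and Ccng1 below it, and the interval of Perp is the widest, from -0.0032 to 1.34.

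Other p53 targets were taken from 3 lists by role, 44 genes in all, of which 42 were tested. With shMed1 #4, 15 of the 42 were called, 7 higher and 8 lower, 35.7% against 28.2% of all genes. With shMed1 #2, 24 were called, 11 higher and 13 lower, 57.1% against 43.7% of all genes. The median log2 fold change of the 42 was 0.02 with shMed1 #4 and 0.03 with shMed1 #2, beside medians of 0.00086 and -0.0035 over all genes tested. Members of the lists thus lay on both sides, and the lists were written with earlier results of these data known.

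Genes listed under cell cycle arrest and DNA repair were called no more often than all genes, at 21.4% against 28.2% with shMed1 #4 and 42.9% against 43.7% with shMed1 #2. Of 14 tested, 3 were higher and 0 lower with shMed1 #4 (median log2 fold change 0.13), and 6 were higher and 0 lower with shMed1 #2 (median 0.16). The 3 higher with shMed1 #4 were Cdkn1a, Plk2 and Gtse1, the last named after its values were seen. Among all genes, 14% were called higher with shMed1 #4 and 21.8% with shMed1 #2. Cdkn1a, the p21 inhibitor of cyclin-dependent kinases, averaged 32.7 ± 3.39 CPM with shMed1 #4, 39.1 ± 1.67 CPM with shMed1 #2 and 21.4 ± 2.24 CPM in NTC (SD, n = 3 each). It rose by 0.61 with shMed1 #4 (SE 0.0940) and by 0.87 with shMed1 #2 (SE 0.0911). The polo-like kinase gene Plk2 rose by 0.32 (SE 0.0547) and 0.82 (SE 0.0525) with shMed1 #4 and shMed1 #2. Polk, a translesion polymerase, rose by 0.30 with shMed1 #2 (SE 0.0937), and Ercc5, an excision repair nuclease, by 0.26 (SE 0.101). With shMed1 #4 their log2 fold changes were 0.16 and 0.15, not called.

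Targets of cell death were split. Of 13 tested, 4 were higher and 2 lower with shMed1 #4 (median 0.09), and 5 were higher and 5 lower with shMed1 #2 (median 0.07). That is 46.2% called with shMed1 #4, against 28.2% of all genes, and 76.9% with shMed1 #2, against 43.7%. The death receptor gene Tnfrsf10b rose by 0.40 with shMed1 #4 (SE 0.0727) and by 0.51 with shMed1 #2 (SE 0.0717), opposite to the death receptor gene Fas. Phlda3, an inhibitor of Akt, rose by 0.47 (SE 0.121) and 0.33 (SE 0.123), and the nuclease gene Aen by 0.30 (SE 0.0785) and 0.46 (SE 0.0769), in the same order of hairpins. Bid, which links death receptors to mitochondria, fell by 0.29 with shMed1 #4 (SE 0.0743) and by 0.38 with shMed1 #2 (SE 0.0748). Trp53inp1, a stress protein that works with p53 kinases, was lowest of this list and is named after its values were seen. It had 7, 9 and 18 counts with shMed1 #4, 7, 5 and 4 counts with shMed1 #2, and 31, 37 and 44 counts in NTC, and was called lower with each hairpin. Apaf1, also named after its values were seen, was called in opposite directions. Its log2 fold change was 0.29 with shMed1 #4 (SE 0.0963) and -0.30 with shMed1 #2 (SE 0.103).

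Targets of metabolism and stress were called lower only. Of 15 tested, 6 were lower and 0 higher with shMed1 #4 (list median -0.10), and 8 were lower and 0 higher with shMed1 #2 (list median -0.32), where 14.1% and 21.9% of all genes were called lower. Sesn2, the sestrin related to Sesn1, averaged 39.2 ± 1.72 CPM with shMed1 #4, 32.4 ± 2.62 CPM with shMed1 #2 and 62.3 ± 3.09 CPM in NTC (SD, n = 3 each). It fell by 0.67 with shMed1 #4 (SE 0.0721) and by 0.94 with shMed1 #2 (SE 0.0742). Sesn2 and Ddit4, an mTORC1 inhibitor, also answer to ATF4. Ddit4 fell by 0.68 (SE 0.115) and 1.57 (SE 0.129) with shMed1 #4 and shMed1 #2. Ephx1, an epoxide hydrolase gene, fell by 0.75 (SE 0.214) and 1.61 (SE 0.242), and Dcxr, a xylulose reductase gene, by 0.70 (SE 0.207) and 1.12 (SE 0.219).

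**Figure D4:**
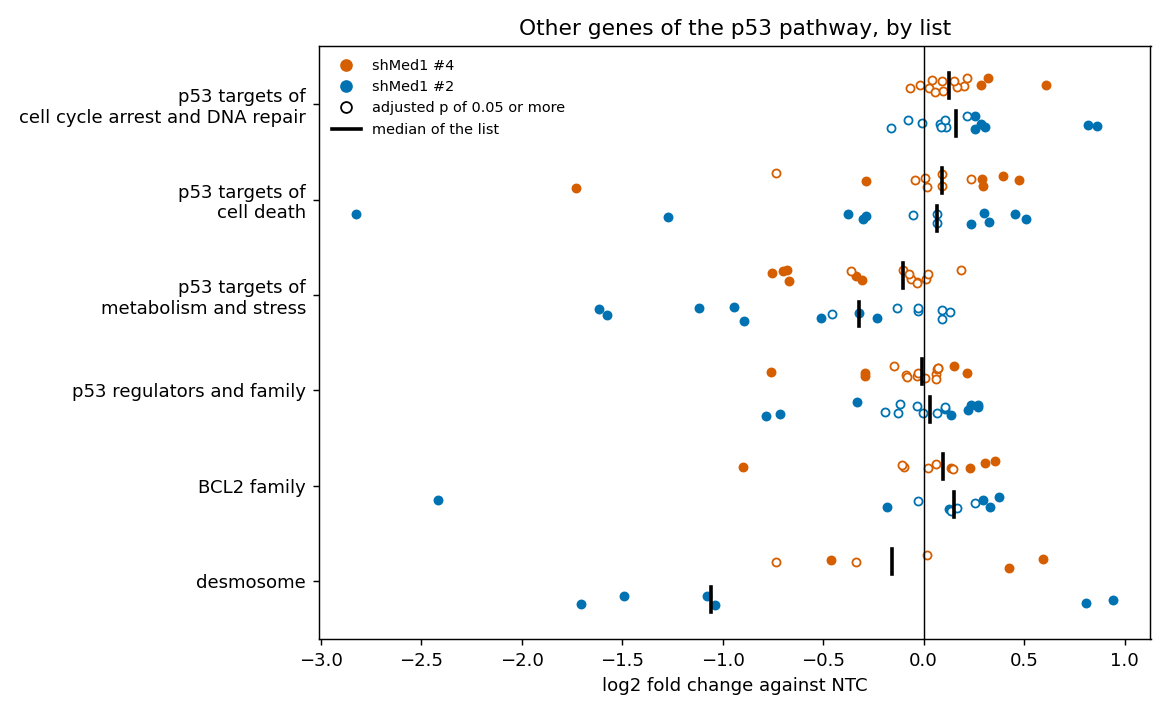
Log2 fold change against NTC (horizontal axis) of each tested gene of 6 lists, shMed1 #4 above shMed1 #2 in each list; open points were not called and black bars are list medians. Called targets of cell cycle arrest and DNA repair lie above 0, called targets of metabolism and stress below it, and the other lists hold both.

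Between the hairpins 12 of the 42 other targets were called, 8 higher and 4 lower with shMed1 #4, 28.6% against 26% of all genes. Without shMed1 #2 replicate 2 the count was 7, and in DESeq2 it was 6. Plk2 was lower with shMed1 #4 by -0.50 (edgeR adjusted p = 2.22e-13) and Cdkn1a by -0.26 (edgeR adjusted p = 0.0164). Ddit4 was higher with shMed1 #4 by 0.89 (edgeR adjusted p = 4.95e-06) and Ephx1 by 0.86 (edgeR adjusted p = 0.0109). Sesn2 was higher by 0.27 (edgeR adjusted p = 0.00612). These genes were named for their fold changes against NTC in these data, so these adjusted p-values are a description and no independent support.

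Regulators of p53 and its family were tested for 16 of 18 genes. With shMed1 #4, 2 were higher and 3 lower, and with shMed1 #2, 6 were higher and 3 lower, with medians of -0.01 and 0.03. The share called was 31.2% with shMed1 #4, near the 28.2% of all genes, and 56.2% with shMed1 #2, against 43.7%. Kat5, the acetyltransferase Tip60 that modifies p53, fell by 0.76 with shMed1 #4 (SE 0.0777) and by 0.78 with shMed1 #2 (SE 0.0777). Cdkn2a, whose products include the Mdm2 inhibitor p19Arf, fell by 0.29 (SE 0.0601) and 0.71 (SE 0.0626), and counts per gene do not separate p19Arf from p16. The p53 kinase gene Hipk2 fell by 0.29 and 0.33, and the checkpoint kinase gene Chek1 rose by 0.22 and 0.27. The p53 relatives Trp63 and Trp73 were not tested. Trp73 had no count, and Trp63, which is known to drive Perp in skin, had 0, 0 and 1 counts with shMed1 #4, 0, 2 and 1 counts with shMed1 #2, and 5, 4 and 3 counts in NTC.

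Of 10 further BCL2 family genes tested, 4 were higher and 1 lower with shMed1 #4, and 4 were higher and 2 lower with shMed1 #2, or 50% called against 28.2% of all genes and 60% against 43.7%. Bmf, a BH3-only gene like Bbc3, fell by 0.90 with shMed1 #4 (SE 0.260) and by 2.42 with shMed1 #2 (SE 0.325), at 2.23 ± 0.495, 0.768 ± 0.0628 and 4.16 ± 0.531 CPM with shMed1 #4, shMed1 #2 and NTC (SD, n = 3 each). Bak1, the partner of Bax at mitochondria, rose by 0.31 (SE 0.0495) and 0.37 (SE 0.0492) with shMed1 #4 and shMed1 #2. The BH3-only gene Bad rose by 0.35 with shMed1 #4, and the effector-like gene Bok by 0.29 with shMed1 #2. Some survival genes of the family were called higher too, and are named after their values were seen. These were Bcl2 (0.23) and Bcl2l1 (0.13) with shMed1 #4, and Bcl2l1 (0.13) and Mcl1 (0.33) with shMed1 #2. Bcl2 was not called with shMed1 #2 (0.14), nor Mcl1 with shMed1 #4 (-0.10). The Bcl2l1 samples with shMed1 #4 overlapped NTC.

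Desmosome genes were set beside Perp. Only 6 of 13 were tested, and the desmosomal cadherins Dsg2, Dsc2 and Dsg1a had no count in any library. The desmosomal cadherin Dsc3 had 1, 0 and 0 counts with shMed1 #4, none with shMed1 #2, and 4, 1 and 7 counts in NTC. Dsg3 and Dsp had at most 1 count in any library. Jup, plakoglobin, fell by 0.46 with shMed1 #4 (SE 0.170) and fell by 1.71 with shMed1 #2 (SE 0.202), and Pkp3, a plakophilin, fell by 1.08 with shMed1 #2 (SE 0.305) from a low level. The plakophilins Pkp2 and Pkp4 rose, Pkp2 by 0.59 and 0.94 and Pkp4 by 0.43 and 0.81 with shMed1 #4 and shMed1 #2. In all, 2 were higher and 1 lower with shMed1 #4, and 2 were higher and 4 lower with shMed1 #2, so 3 and 6 of the 6 were called, where 28.2% and 43.7% of all genes were. Of the epithelial markers only Krt8 and Krt18 were tested, and both were called lower with each hairpin. Krt18 had log2 fold changes of -0.21 with shMed1 #4 and -1.43 with shMed1 #2, and Krt8 of -0.89 and -1.74. The summed level, mostly of Krt18, was 41.2 to 51.7 CPM with shMed1 #4, 19.1 to 22.1 CPM with shMed1 #2 and 56.4 to 58.2 CPM in NTC. Of 4 fibroblast markers, Pdgfra and Col1a1 were tested and the other two were near 0, and the summed level was 67.2 to 70.7 CPM with shMed1 #4, 52.0 to 54.5 CPM with shMed1 #2 and 91.2 to 98.8 CPM in NTC. The part of either marker list in the level of Perp was not tested.

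Genes with an assigned symbol that averaged 1 log2 CPM or more were ranked by likeness to Perp. Predicted genes, clones, pseudogenes and the members were left out. The 3 ranked genes whose profile over the 9 samples lay nearest to that of Perp were Saa3, Xist and Cxcl12. Likeness was the root mean square difference of log2 CPM (prior count 2) after subtraction of the NTC mean. It was 0.38 for Saa3, 0.53 for Xist and 0.57 for Cxcl12. This measure is set mainly by the size of the fall from NTC, which was known for Perp when it was chosen. Saa3, an acute-phase gene, averaged 1.80 CPM with shMed1 #4, 1.08 CPM with shMed1 #2 and 16.6 CPM in NTC. Cxcl12, a chemokine gene, averaged 1.09, 0.921 and 11.3 CPM in the same order. Xist, a noncoding RNA of the X chromosome, averaged 16.8, 16.2 and 154 CPM. Xist reads cannot be separated from reads of Tsix, transcribed antisense to it, with a strand setting not given in the sources used here.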

How the data were processed

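The deposited files of the authors hold raw gene counts, 1 file for each sample, made with STAR and HTSeq on GRCm38 (mm10) per the submitters' processing notes, with versions, annotation release and strand setting not given in the sources used here. Per the labels, libraries of total RNA were run on a BGISEQ-500 instrument. Symbols, positions and exon lengths came from GENCODE M21 (GRCm38), with 55154 of 55335 identifiers matched without their version. No line named anything but a gene.

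Counts were filtered with filterByExpr, scaled by TMM (factors 0.982 to 1.02; CPM use scaled library totals) and fitted over all 9 samples with edgeR 4.0.16 (R 4.3.3, robust quasi-likelihood, 1 coefficient per group). P-values were adjusted by Benjamini-Hochberg over 13611 genes, and scripts were tested on simulated counts. No 2 replicates of a group agreed within counting noise (chi-square over degrees of freedom 1.55 to 2.53). The spread beyond counting noise, edgeR's common biological coefficient of variation, was 3.68%. The members and lists were chosen with earlier results of these data known. In each list up to 4 genes are named by rule, from called genes that average 1 log2 CPM or more. These have the largest mean change of both hairpins. Further called genes, such as Gtse1, Apaf1 and Mcl1, were named after their values were seen. Alternatives were RLE, upper quartile and library size scaling, no filter and a stricter filter, DESeq2 1.42.0, only the groups compared, a replicate block, and each library left out. Perp and Pmaip1 had no promoter window to search. The result of 1 leukocyte marker is not reported here.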

Additional observations from a re-analysis of the deposited data

Results flagged for a closer look

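The effects of the hairpins against NTC differed for 4 of the 8 p53 genes tested, where 26% of all genes were called. The test was shMed1 #4 against shMed1 #2 in edgeR's quasi-likelihood fit. The genes were chosen with the fold changes of each hairpin against NTC known, so the calls are a description. The log2 difference was 0.74 for Bbc3 and 0.30 for Bax, which were higher with shMed1 #4, and -0.54 for Ccng1 and -0.27 for Mdm2, which were lower with shMed1 #4. These 4 calls held under each of the 17 alternatives, with adjusted p of at most 0.00375 for Bbc3, 0.0230 for Bax, 2.29e-09 for Ccng1 and 0.00942 for Mdm2. Against NTC, Ccng1 was called lower with shMed1 #4, while its log2 fold change was 0.11 with shMed1 #2.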

How the results depend on the processing

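Under 17 alternatives the calls of all 8 tested genes kept their side of the threshold in all 3 comparisons, except Ccng1 with shMed1 #2, which was called without shMed1 #2 replicate 1. Perp ranged from -3.64 to -3.50 with shMed1 #4 and from -4.46 to -4.02 with shMed1 #2. Between the hairpins DESeq2 called 2338 genes, against 3540 in edgeR. Among the 42 other p53 targets tested, it called 6 between the hairpins, and leaving out 1 library gave 7 to 12, against 12; the cause was not tested. Replicate numbers did not pair the samples: same-numbered samples had correlations of deviations from -0.0413 to 0.0416, and 1 of 9 samples correlated best with its own number in each other group. With the replicate block, 3786 genes were called with shMed1 #4, 5892 with shMed1 #2 and 3461 between the hairpins, and no call of the 8 genes changed. Depth limits Pmaip1, Gdf15 and Trp63, and widens the interval of Perp between the hairpins.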
